A study of Homo sapiens with 8 samples.

Results

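The genes described here each yielded 2 mRNA isoforms whose levels went apart after a transcription inhibitor was added. The separation was wide and ran the same way in both cell populations of the series. A gene was eligible when the same 2 coding RefSeq accessions (NM_) stood in both deposited tables, ZNF genes left out, which held for 2165 genes of the 13262 with a symbol. A gene was a member when one isoform lay at least 1.5 log2 units (2.83-fold) below the other in RBMS1 knockdown cells and the same isoform lay at least 1.5 below in control cells, which held for 133 genes, 6.14% of those eligible. The members were thus chosen by their values in both tables, and those values are given as a description with no test.

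SW480, a long-established line grown from a human colorectal adenocarcinoma, carried either an shRNA against RBMS1 or a control shRNA. RBMS1 is a protein that binds single-stranded nucleic acids and AU-rich RNA. The 4 groups were RBMS1 shRNA at 9 h, RBMS1 shRNA at 0 h, control shRNA at 9 h and control shRNA at 0 h of alpha-amanitin at 10 µg/mL, with 2 libraries each of ribosome-depleted total RNA and 8 in all. The sample labels name one RBMS1 shRNA clone and the series text a pair of them, and separate cultures for the libraries of one group are not stated. The authors deposited one log fold change per transcript and cell population, read here as the log2 of 9 h over 0 h with the libraries combined, and no counts, so depth and the spread between libraries are unknown and no error stands beside a value. The series text calls the line breast cancer. Of the fixed markers, 7 of 10 of colon epithelium, 1 of 7 of breast epithelium (KRT5), 0 of 5 of fibroblasts and 0 of 3 of endothelium were listed in at least 1 table. KRT20 and VIL1 of the colon markers were listed for control cells alone, and of 4 immune markers CD14 was listed for knockdown cells alone. The colon markers CDX2, KRT8, KRT18, EPCAM and CDH1 were listed for both populations, and CDX1, LGR5 and CDH17 for neither. Such a tally does not establish the tissue of origin. A deposited fold change shows only that a transcript was listed, not how abundant it was.

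One gene can yield mRNAs that differ in their start, in the exons they keep or in the place where they are cleaved and polyadenylated. The 3′ untranslated region (3′UTR) carries most known sites for proteins and microRNAs that speed or slow decay, and a stop codon far upstream of an exon junction can mark an mRNA for nonsense-mediated decay, so isoforms of one gene can differ in half-life. Alpha-amanitin binds RNA polymerase II and is used to stop new mRNA, so that the level left at a later time reads out decay. How completely transcription was blocked here was not tested. Values are read as relative to the rest of the library, which moves all transcripts of a population alike. What put single isoforms far above 0 was not tested. RNA-seq reads that fall in shared exons have to be divided between isoforms by a model, so the values of 2 isoforms of one gene are not independent of each other.

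The sequences of the histone gene H2BC5 are shown because its isoforms share the coding sequence and carry different 3′ elements. Replication-dependent histone mRNAs end in a stem-loop instead of a poly(A) tail and are degraded quickly when DNA replication stops, while some histone genes also give a longer, polyadenylated mRNA. In GENCODE release 29 (GRCh38) the transcript paired with the lower isoform has a 3′UTR of 91 bases that holds a perfect stem of 6 bases around a loop of 4 (plus strand, chr6:26158580-26158609, capitals mark stem and loop). The transcript paired with the higher isoform lacks it and ends in a further exon with the poly(A) signal AATAAA (plus strand, chr6:26171313-26171342, signal in capitals). The letters AATAAA also occur 1 time in the 3′UTR of the lower isoform, so they do not set the isoforms apart.
H2BC5 higher isoform: aaagttataattAATAAAatctgcggagaa
H2BC5 lower isoform: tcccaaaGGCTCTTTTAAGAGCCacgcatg
H2BC5 had the higher isoform (NM_138720) at 0.70 in knockdown and 0.75 in control cells in the authors' deposited tables. The lower H2BC5 isoform (NM_021063) was at −1.51 in knockdown and −1.59 in control cells in the authors' deposited tables. The isoform with the stem-loop letters was below 0 and the other above 0 in both cell populations. A stem of 6 bases starting with GG around a loop of 4 starting with UUU, searched on the transcript strand, was found in 5 of 3712 3′UTRs of eligible isoforms (0.135%), and H2BC5 was the only member among the genes concerned. The definition of this stem was set after the H2BC5 sequence had been read, and was widened once. By symbol, H2BC5 was also the only histone gene with an eligible pair.

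TMEM106B, a lysosomal membrane protein, is shown because the GENCODE transcripts paired with its isoforms code for the same protein and differ in 3′UTR length. The 3′UTR has 1114 bases in the higher and 11392 in the lower isoform. The transcripts also differ in the 5′ untranslated region (5′UTR), with 187 bases in the higher and 322 in the lower isoform. The higher isoform has 8 exons and the lower 9. Each ends after a canonical signal (chromosome 7, plus strand, chr7:12233054-12233083 for the higher and chr7:12243333-12243362 for the lower isoform, capitals mark AATAAA).
TMEM106B higher isoform: gatggtggccaaAATAAAacctatttagaa
TMEM106B lower isoform: cattctcatggaAATAAAagataatttgaa
TMEM106B had the higher isoform (NM_001134232) at 0.03 in knockdown and 0.18 in control cells in the authors' deposited tables. The lower TMEM106B isoform (NM_018374) was at −2.32 in knockdown and −2.46 in control cells in the authors' deposited tables. The isoform with the long 3′UTR was the lower one in both, and the short one lay near 0. MAFG, a small MAF transcription factor, likewise had the same coding sequence with a 3′UTR of 1045 bases in the higher and 4335 in the lower isoform, and stood with the higher isoform at 1.90 in knockdown and 3.52 in control cells and the lower at −0.20 in knockdown and −0.35 in control cells in the authors' deposited tables. In MAFG the short isoform was high and the long one near 0. The first exon of the MAFG isoforms differed as well, so in neither gene was the 3′UTR the only difference. The MAFG transcripts share stop codon and last exon, so the short 3′UTR may be cut-short annotation. All lengths and sequences here and below are those of GENCODE transcripts paired by similarity, from which the quantified isoforms can differ.

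For 6 further members the last 30 coding bases are shown, since the isoforms have different stop codons and so code for proteins with different ends. These members were picked after their values were seen. Capitals mark the stop codon, and each stretch lies in 1 exon of GRCh38.
IL6R higher isoform: tcaagaagacgtggaagctgcgggctcTGA
IL6R lower isoform: agcaatacagactacttcttccccagaTAG
PPP1CC higher isoform: tatagaaacaatactgttctatacgagTGA
PPP1CC lower isoform: ggtatgatcacaaagcaagcaaagaaaTAG
GLE1 higher isoform: tttctgacttcctccttctggcgctccTGA
GLE1 lower isoform: gactactttcccaggtatcaggcttgtTGA
JMJD6 higher isoform: gacacttgtggaggccgggctcaccccTGA
JMJD6 lower isoform: gtcagcaaagagcgcagctcctccaggTGA
SPTBN1 higher isoform: gccagtgaccagccatggtctggactgTGA
SPTBN1 lower isoform: cggttcagcctttttggcaaaaagaaaTGA
RFC3 higher isoform: gaggaatcaagaagctgtgacatattcTGA
RFC3 lower isoform: gaggatggattggaaggcatgatgttcTGA
The stretches lie at chr1:154465136-154465165 and chr1:154465351-154465380 (plus strand) for IL6R, chr12:110720134-110720163 and chr12:110721076-110721105 (minus strand) for PPP1CC, chr9:128541141-128541170 and chr9:128539685-128539714 (plus) for GLE1, chr17:76716686-76716715 and chr17:76718729-76718758 (minus) for JMJD6, chr2:54660057-54660086 and chr2:54668540-54668569 (plus) for SPTBN1 and chr13:33966096-33966125 and chr13:33836266-33836295 (plus) for RFC3, the higher isoform first. IL6R, the interleukin 6 receptor, had the higher isoform (NM_181359) at 2.62 in knockdown and 2.05 in control cells in the authors' deposited tables. The lower IL6R isoform (NM_000565) was at −0.76 in knockdown and −1.14 in control cells in the authors' deposited tables. Its higher isoform is the one known to lack the membrane-spanning segment and to give a soluble receptor, with a coding sequence of 1098 bases in the higher and 1407 in the lower isoform. PPP1CC, a catalytic subunit of protein phosphatase 1, had the higher isoform (NM_001244974) at 1.16 in knockdown and 1.36 in control cells in the authors' deposited tables. The lower PPP1CC isoform (NM_002710) was at −0.85 in knockdown and −0.37 in control cells in the authors' deposited tables. Both IL6R and PPP1CC thus had one isoform above 1 and the other below 0 in each cell population.

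GLE1, an mRNA export factor, had the higher isoform (NM_001003722) at 0.23 in knockdown and 0.28 in control cells in the authors' deposited tables. The lower GLE1 isoform (NM_001499) was at −1.73 in knockdown and −1.75 in control cells in the authors' deposited tables. JMJD6, an oxygenase linked to splicing, had the higher isoform (NM_001081461) at 1.04 in knockdown and 1.42 in control cells and the lower (NM_015167) at −1.14 in knockdown and −1.23 in control cells in the authors' deposited tables. In GLE1 the higher isoform lay near 0 and in JMJD6 above 1, while both lower isoforms lay below −1 in each population. SPTBN1, a spectrin of the membrane skeleton, had the higher isoform (NM_178313) at −0.11 in knockdown and −0.10 in control cells in the authors' deposited tables. The lower SPTBN1 isoform (NM_003128) was at −3.96 in knockdown and −3.30 in control cells in the authors' deposited tables. RFC3, a subunit of the clamp loader of DNA replication, had the higher isoform (NM_181558) at 3.24 in knockdown and 2.53 in control cells and the lower (NM_002915) at −0.29 in knockdown and −0.20 in control cells in the authors' deposited tables. The isoform farther from 0 was the lower one in SPTBN1, which has the longer coding sequence (6468 bases in the higher and 7095 in the lower isoform). In RFC3 it was the higher one, which has the shorter coding sequence (918 bases in the higher and 1071 in the lower isoform).

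Across the 133 members the higher isoforms had a median of 1.08 in knockdown and 0.94 in control cells, and the lower isoforms −1.24 in knockdown and −1.39 in control cells, as values of the authors' deposited tables. In 100 members the higher isoform was above 0 and the lower below 0 in both cell populations, in 12 both isoforms were below 0, and in 4 both were above. The lower isoform lay at −1 or below, and the higher one within 1 of 0, in both populations for 49 members. The reverse, a higher isoform at 1 or above beside a lower one within 1 of 0, held for 30 members, 5 had the higher isoform at 1 or above and the lower at −1 or below, and 49 met none of these descriptions in both populations. The unweighted mean of the isoforms was within 0.5 of 0 in both populations for 26 members. The rule requires a separation, so these counts describe the members and are not set against other genes.

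**Figure D1:**
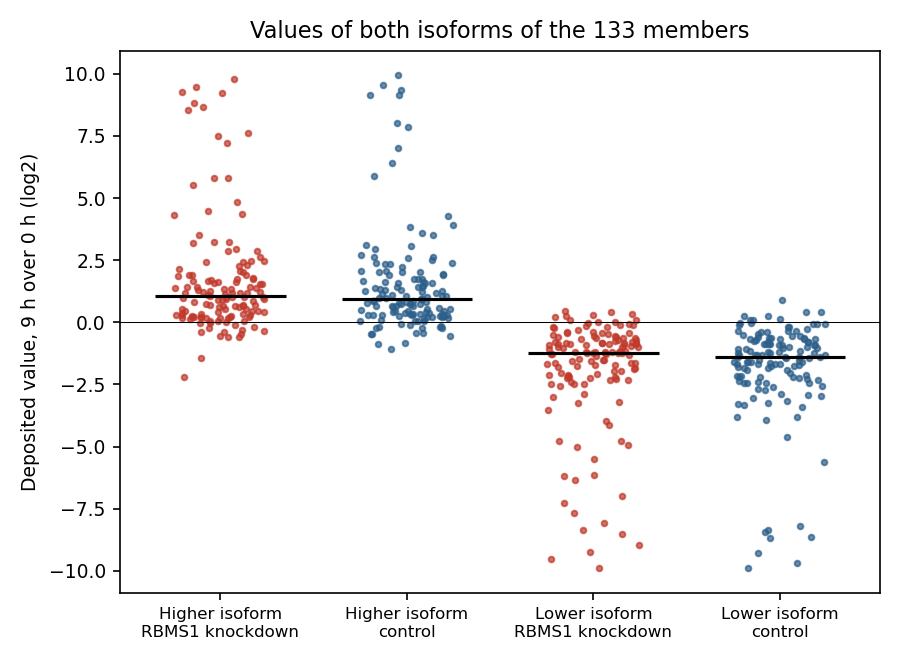
Deposited log2 values (9 h over 0 h) on the vertical axis for the higher and the lower isoform of each of the 133 members, in RBMS1 knockdown cells (red) and control cells (blue). Points are genes, spread sideways for legibility, and the bars are medians, at 1.08 and 0.94 for the higher and −1.24 and −1.39 for the lower isoforms.

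The gap, the higher minus the lower isoform, had a median of 2.65 in knockdown and 2.60 in control cells and reached 15.36 in knockdown and 11.95 in control cells. Over all deposited transcripts the largest value in size was 9.995 in knockdown and 9.992 in control cells. Whether transcripts with larger values were left out by the authors is not stated. The gap was 2 or more in both populations for 78 members, 3 or more for 37 and 5 or more for 16. Among all 2165 eligible genes a gap of 1.5 or more in size was present for 465 (21.5%) in the knockdown table and 421 (19.4%) in the control table. Both tables passed 1.5 for 193 genes (8.91%), and in 133 of these the same isoform was lower, while in 60 (2.77% of those eligible) the isoforms changed places. The members were thus 28.6% of the genes past 1.5 in knockdown cells and 31.6% of those past it in control cells.

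**Figure D2:**
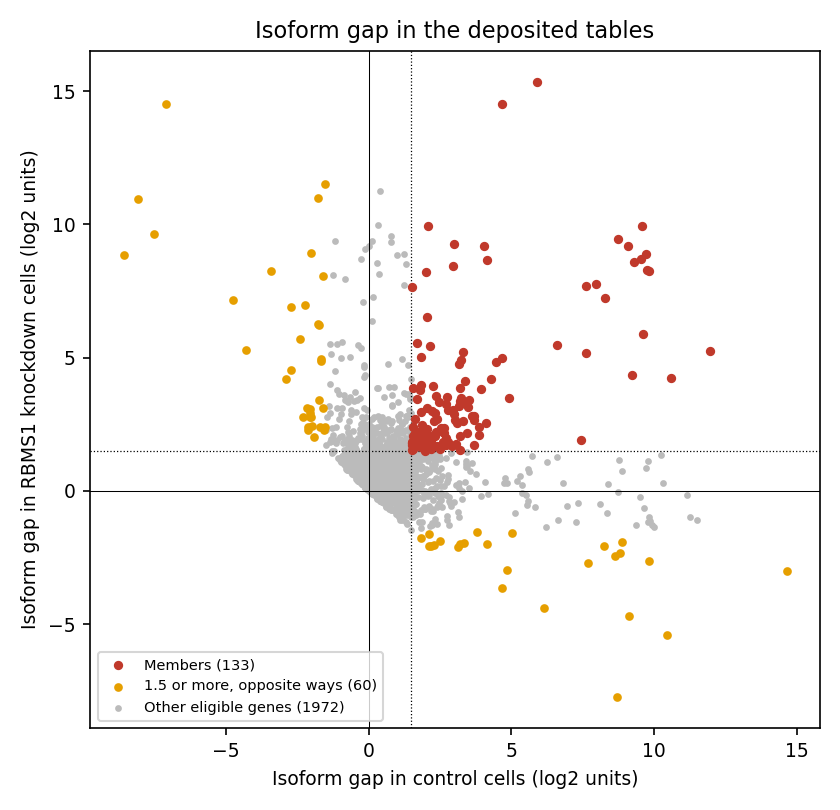
Isoform gap (log2 units, higher minus lower isoform, ordered by the mean of both tables) in control cells on the horizontal and in RBMS1 knockdown cells on the vertical axis for the 2165 eligible genes. Red points are the 133 members, orange points the 60 genes past 1.5 in opposite ways, grey points the rest, and dotted lines mark 1.5.

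Members just inside the threshold were ARHGEF3, with a gap of 1.72 in knockdown cells and one at the threshold in control cells, APAF1, the core of the apoptosome, with 1.51 in knockdown and 1.98 in control cells, TAF1A with 1.78 in knockdown and 1.52 in control cells, DSE with 7.65 in knockdown and 1.53 in control cells and IGSF8 with 1.54 in knockdown and 1.53 in control cells. Just outside it were the eligible genes DNM1, whose gaps were 1.63 in knockdown and 1.49 in control cells, MCPH1 with 2.94 and 1.48, ATP5F1A with 1.48 and 2.05, SCRN2 with 2.27 and 1.48, and SLC12A8 with 4.20 and 1.47, again in knockdown and in control cells. Genes on both sides of the threshold were therefore alike in their smaller gap.

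Some members had very large values. A value of 8 or more in size, a fold of at least 256, occurred in 21 members. A value of 5 or more occurred in 32 members (24.1%), against 80 of the other eligible genes (3.94%). The rule asks for a wide gap and so favours such values. DCP2, a decapping enzyme of mRNA decay, had the largest smaller gap, with the higher isoform (NM_001242377) at 9.28 in knockdown and 9.15 in control cells in the authors' deposited tables. The lower DCP2 isoform (NM_152624) was at −0.65 in knockdown and −0.41 in control cells in the authors' deposited tables. AFMID, an enzyme of tryptophan breakdown, had the higher isoform (NM_001145526) at 9.46 in knockdown and 9.33 in control cells and the lower (NM_001010982) at 0.27 in knockdown and 0.25 in control cells in the authors' deposited tables. Both kept one isoform near 0 while the other lay above 9 in each population.

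On the other side, ST13, a co-chaperone of HSP70, had the higher isoform (NM_001278589) at 0.20 in knockdown and 0.40 in control cells in the authors' deposited tables. The lower ST13 isoform (NM_003932) was at −9.25 in knockdown and −8.35 in control cells in the authors' deposited tables. BCKDHA, a subunit of the branched-chain keto acid dehydrogenase, had the higher isoform (NM_000709) at 0.19 in knockdown and 0.29 in control cells and the lower (NM_001164783) at −8.51 in knockdown and −9.26 in control cells in the authors' deposited tables. Their higher isoforms lay within 0.5 of 0 and the lower ones below −8. In each gene both isoforms paired with the same GENCODE transcript, so how they differ in structure was not read here. In the same way the lower isoforms of TSPAN17, RAP1GAP2, ZBTB22 and LNPEP were at −7.00, −8.08, −9.89 and −7.29 in knockdown cells and −8.64, −8.21, −8.67 and −8.45 in control cells in the authors' deposited tables. The higher isoforms of these 4 were at 1.59, −0.31, −2.21 and −0.03 in knockdown and 0.66, −0.24, −1.07 and −0.18 in control cells. FCHO2, which acts in clathrin-mediated endocytosis, PARP3, an ADP-ribosyltransferase of DNA repair, and XPNPEP1, an aminopeptidase, had higher isoforms at 7.60, 7.49 and 8.53 in knockdown and 8.02, 7.86 and 9.94 in control cells in the authors' deposited tables. Their lower isoforms were at −1.30, −0.78 and 0.28 in knockdown and −1.68, −1.91 and 0.11 in control cells. No abundance stands beside these values, so pairs with few reads could not be told from pairs with many.

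In 101 members all values were under 5 in size, and the pairs of these with the largest smaller gap are drawn one by one. CASS4, a scaffold of focal adhesions, led with the higher isoform at 2.28 in knockdown and 4.28 in control cells and the lower at −2.55 in knockdown and −0.19 in control cells in the authors' deposited tables. UBXN6, a cofactor of the p97 ATPase, differed little between the populations, with the higher isoform (NM_001171091) at 3.19 in knockdown and 3.12 in control cells in the authors' deposited tables. The lower UBXN6 isoform (NM_025241) was at 0.03 in knockdown and −0.05 in control cells in the authors' deposited tables. MED11, a subunit of Mediator, was as even, with the higher isoform (NM_001001683) at −0.48 in knockdown and −0.43 in control cells and the lower (NM_001305000) at −3.53 in knockdown and −3.40 in control cells in the authors' deposited tables. TUBB2A, a beta-tubulin with a near-identical copy in TUBB2B that could share its reads, had the higher isoform at 0.43 in knockdown and 0.21 in control cells and the lower at −2.99 in knockdown and −3.32 in control cells in the authors' deposited tables.

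**Figure D3:**
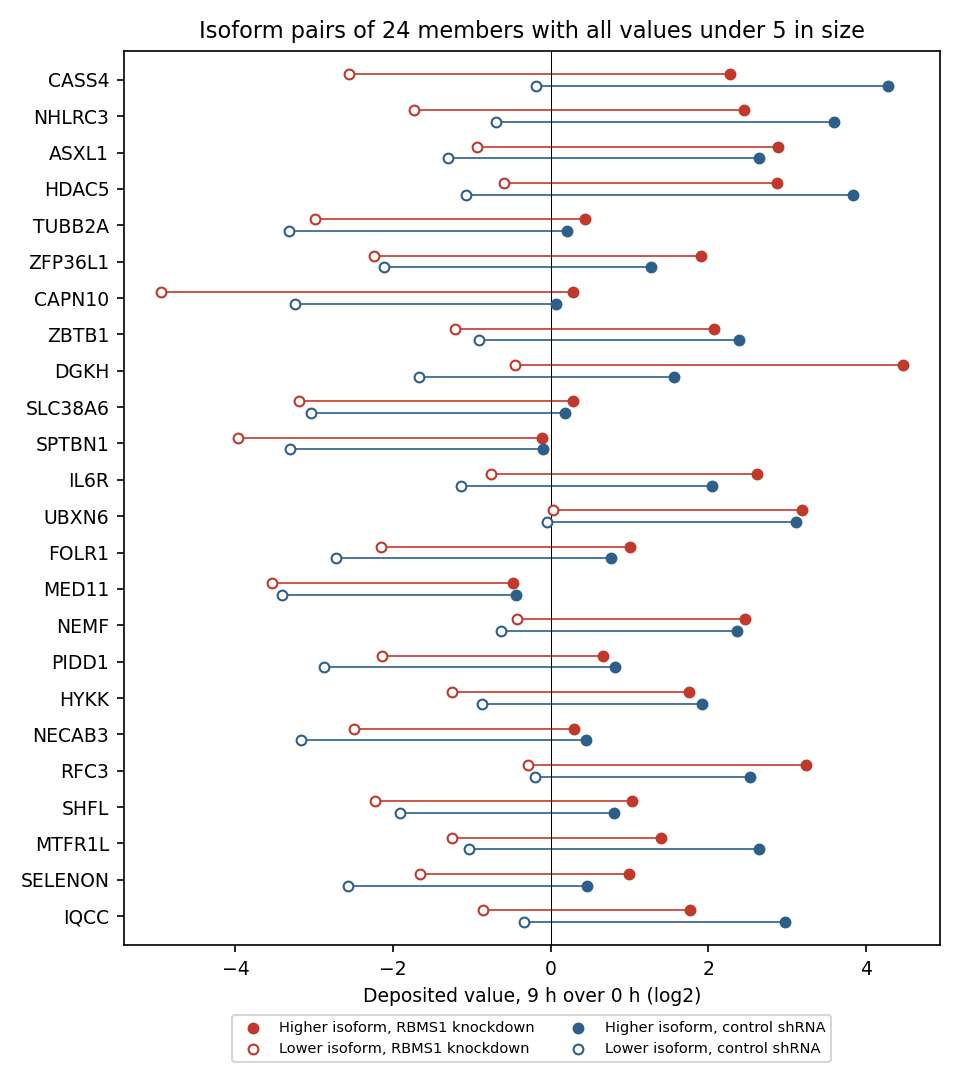
Deposited log2 values (9 h over 0 h, horizontal axis) of both isoforms for the 24 members with the largest smaller gap among the 101 whose values were all under 5 in size. Filled points are the higher and open points the lower isoform, red for RBMS1 knockdown and blue for control cells, and in every row the open points lie left of the filled ones.

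The following members were picked by hand for roles in RNA metabolism, with their values known, and their number says nothing of a theme. ELAVL2, which binds AU-rich elements, had the higher isoform (NM_004432) at 3.50 in knockdown and 0.21 in control cells in the authors' deposited tables. The lower ELAVL2 isoform (NM_001171195) was at −0.04 in knockdown and −2.15 in control cells in the authors' deposited tables. ZFP36L1, which binds AU-rich elements and recruits deadenylases, had the higher isoform (NM_004926) at 1.90 in knockdown and 1.27 in control cells and the lower (NM_001244701) at −2.24 in knockdown and −2.11 in control cells in the authors' deposited tables. The isoforms of both genes lay on opposite sides of 0 in each population, and both isoforms of ELAVL2 had higher values in knockdown cells. YTHDC1, the nuclear reader of m6A, had the higher isoform (NM_133370) at 5.80 in knockdown and 9.54 in control cells and the lower (NM_001031732) at −0.10 in knockdown and −0.06 in control cells in the authors' deposited tables. TENT4B, a non-canonical poly(A) polymerase, had the higher isoform at 1.23 in knockdown and 2.36 in control cells and the lower at −0.93 in knockdown and −1.09 in control cells in the authors' deposited tables. SFSWAP, a splicing regulator, had the higher isoform at 2.96 in knockdown and 1.28 in control cells and the lower at −0.83 in knockdown and −0.52 in control cells in the authors' deposited tables. The lower isoforms of YTHDC1, TENT4B and SFSWAP lay between 0 and −1.1, and their higher isoforms lay above 1. RPP14, a subunit of RNase P, had the higher isoform at 0.32 in knockdown and 1.96 in control cells and the lower at −8.34 in knockdown and −2.20 in control cells in the authors' deposited tables. NEMF, which acts in ribosome quality control, had the higher isoform at 2.46 in knockdown and 2.36 in control cells and the lower at −0.43 in knockdown and −0.63 in control cells in the authors' deposited tables. PUS3, a pseudouridine synthase, had the higher isoform at 0.67 in knockdown and 1.06 in control cells and the lower at −0.88 in knockdown and −0.89 in control cells in the authors' deposited tables. Of these 3, RPP14 alone had a lower isoform below −2 in both populations. HNRNPA1L2, a relative of HNRNPA1 whose reads could be shared with it, had the higher isoform at 0.22 in knockdown and 0.99 in control cells and the lower at −1.54 in knockdown and −0.98 in control cells in the authors' deposited tables.

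Members picked in the same way for roles in transcription and chromatin are given next. ASXL1, a partner of the BAP1 deubiquitinase, had the higher isoform (NM_001164603) at 2.88 in knockdown and 2.64 in control cells in the authors' deposited tables. The lower ASXL1 isoform (NM_015338) was at −0.93 in knockdown and −1.30 in control cells in the authors' deposited tables. Its higher isoform stops after 258 coding bases, against 4626 in the lower one, which codes for the full-length protein. HDAC5, a class IIa histone deacetylase, had the higher isoform (NM_001015053) at 2.87 in knockdown and 3.83 in control cells in the authors' deposited tables. The lower HDAC5 isoform (NM_005474) was at −0.59 in knockdown and −1.08 in control cells in the authors' deposited tables. EED, a core subunit of Polycomb repressive complex 2, had the higher isoform at 1.35 in knockdown and 0.95 in control cells and the lower at −1.25 in knockdown and −1.33 in control cells in the authors' deposited tables. In ASXL1, HDAC5 and EED the isoforms lay on opposite sides of 0 in both populations. CCNT1, the cyclin of P-TEFb, had the higher isoform (NM_001240) at 0.05 in knockdown and 0.33 in control cells in the authors' deposited tables. The lower CCNT1 isoform (NM_001277842) was at −2.50 in knockdown and −3.80 in control cells in the authors' deposited tables. Here the lower isoform has the shorter coding sequence, 2181 bases in the higher and 555 in the lower isoform. Of the 9 eligible ZBTB genes, BTB-domain zinc-finger factors, 3 were members. Besides ZBTB22, these were ZBTB1 with the higher isoform at 2.07 in knockdown and 2.39 in control cells and the lower at −1.21 in knockdown and −0.90 in control cells and ZBTB25 with the higher isoform at 1.66 in knockdown and 1.02 in control cells and the lower at −1.29 in knockdown and −0.80 in control cells, in the authors' deposited tables. LIN54, a DNA-binding subunit of the DREAM complex, had the higher isoform at 1.20 in knockdown and 0.74 in control cells and the lower at −0.84 in knockdown and −1.59 in control cells in the authors' deposited tables. TBX3, a T-box factor, had the higher isoform at 0.20 in knockdown and 0.05 in control cells and the lower at −2.18 in knockdown and −3.82 in control cells in the authors' deposited tables. TBX3 kept a steady higher isoform beside a lower one under −2, and LIN54 did not.

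Among cell cycle genes, CDK6, a kinase of G1, had the higher isoform (NM_001145306) at 0.26 in knockdown and 0.80 in control cells in the authors' deposited tables. The lower CDK6 isoform (NM_001259) was at −1.74 in knockdown and −1.39 in control cells in the authors' deposited tables. CDK17, a kinase of the PCTAIRE group, had the higher isoform (NM_002595) at −0.34 in knockdown and −0.19 in control cells and the lower (NM_001170464) at −2.38 in knockdown and −2.46 in control cells in the authors' deposited tables. The lower isoforms of both kinases were below −1 in each population. FBXO5, an inhibitor of the anaphase-promoting complex, had the higher isoform (NM_012177) at −0.19 in knockdown and −0.25 in control cells in the authors' deposited tables. The lower FBXO5 isoform (NM_001142522) was at −2.18 in knockdown and −2.24 in control cells in the authors' deposited tables. KIF23, a kinesin of the central spindle, had the higher isoform (NM_004856) at −0.53 in knockdown and −0.46 in control cells and the lower (NM_138555) at −2.48 in knockdown and −2.44 in control cells in the authors' deposited tables. Each isoform of FBXO5 and KIF23 differed by less than 0.1 between the populations. E2F6, a repressor of the E2F family, had the higher isoform at 0.21 in knockdown and −0.88 in control cells and the lower at −1.35 in knockdown and −2.43 in control cells in the authors' deposited tables. E2F5, another repressor of that family, had the higher isoform at 0.06 in knockdown and 0.45 in control cells and the lower at −5.49 in knockdown and −1.24 in control cells in the authors' deposited tables. Both isoforms of E2F6 were below 0 in control cells, and the higher one was above 0 in knockdown cells.

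The members with roles in signalling and cell death given here were also picked by hand. AXIN1, the scaffold of the beta-catenin destruction complex, had the higher isoform (NM_003502) at 0.19 in knockdown and 0.35 in control cells in the authors' deposited tables. The lower AXIN1 isoform (NM_181050) was at −1.97 in knockdown and −1.30 in control cells in the authors' deposited tables. SMURF1, a ubiquitin ligase of BMP and TGF-beta signalling, had the higher isoform at 1.72 in knockdown and 0.29 in control cells and the lower at −1.21 in knockdown and −2.04 in control cells in the authors' deposited tables. TGFBRAP1, a TGF-beta receptor-associated protein, had the higher isoform at 1.04 in knockdown and 6.42 in control cells and the lower at −4.13 in knockdown and −1.18 in control cells in the authors' deposited tables. AXIN1 and SMURF1 had lower isoforms below −1 in both populations, and so did TGFBRAP1. IKBKB, a kinase of NF-kappaB activation, had the higher isoform at −0.23 in knockdown and 0.28 in control cells and the lower at −1.96 in knockdown and −1.40 in control cells in the authors' deposited tables. IRF5, an interferon regulatory factor, had the higher isoform at 0.46 in knockdown and 0.52 in control cells and the lower at −1.53 in knockdown and −2.20 in control cells in the authors' deposited tables. SOCS4, of the suppressors of cytokine signalling, had the higher isoform at 0.67 in knockdown and 0.87 in control cells and the lower at −1.02 in knockdown and −1.54 in control cells in the authors' deposited tables. PIDD1 and APAF1 act in caspase activation. PIDD1 had the higher isoform at 0.66 in knockdown and 0.82 in control cells and the lower at −2.13 in knockdown and −2.87 in control cells in the authors' deposited tables. APAF1 had the higher isoform at 0.28 in knockdown and −0.43 in control cells and the lower at −1.24 in knockdown and −2.41 in control cells in the authors' deposited tables. Both APAF1 isoforms had lower values in control cells. PRKAG2, a regulatory subunit of AMP-activated kinase, had the higher isoform at 0.12 in knockdown and 0.05 in control cells and the lower at −2.87 in knockdown and −2.18 in control cells in the authors' deposited tables. DYRK3, a dual-specificity kinase, had the higher isoform at 1.44 in knockdown and 0.88 in control cells and the lower at −0.61 in knockdown and −0.66 in control cells in the authors' deposited tables. The lower isoforms were below −1 in both populations for PIDD1, APAF1, PRKAG2, IKBKB, IRF5 and SOCS4, and between 0 and −1 for DYRK3.

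Metabolic enzymes and transporters included 5 of the 39 eligible solute carriers. SLC38A2 and SLC38A6 belong to the neutral amino acid transporters of one family. SLC38A2 had the higher isoform (NM_001307936) at 0.07 in knockdown and 0.36 in control cells in the authors' deposited tables. The lower SLC38A2 isoform (NM_018976) was at −2.14 in knockdown and −2.26 in control cells in the authors' deposited tables. SLC38A6 had the higher isoform (NM_153811) at 0.29 in knockdown and 0.19 in control cells and the lower (NM_001172702) at −3.19 in knockdown and −3.04 in control cells in the authors' deposited tables. In both, the higher isoform was near 0 and the lower one under −2. SLC43A3, a nucleobase transporter, had the higher isoform at 8.65 in knockdown and 3.92 in control cells and the lower at −0.54 in knockdown and −0.11 in control cells in the authors' deposited tables, SLC16A5 had the higher isoform at 1.85 in knockdown and 1.05 in control cells and the lower at −0.38 in knockdown and −0.79 in control cells, and SLC35A1, the Golgi carrier of CMP-sialic acid, had the higher isoform at 1.37 in knockdown and 1.05 in control cells and the lower at −0.85 in knockdown and −0.64 in control cells. In these 3 the higher isoform lay above 1 and the lower between 0 and −1. ENO1, a glycolytic enzyme, had the higher isoform (NM_001428) at 0.37 in knockdown and 0.43 in control cells in the authors' deposited tables. The lower ENO1 isoform (NM_001201483) was at −1.26 in knockdown and −1.78 in control cells in the authors' deposited tables. GCH1, the first enzyme of tetrahydrobiopterin synthesis, had the higher isoform at 1.54 in knockdown and 1.73 in control cells and the lower at −0.10 in knockdown and 0.15 in control cells in the authors' deposited tables. PFKFB2, which sets fructose 2,6-bisphosphate, had the higher isoform at 2.44 in knockdown and 2.05 in control cells and the lower at 0.23 in knockdown and 0.40 in control cells in the authors' deposited tables. ATP5F1C, the gamma subunit of ATP synthase, had the higher isoform (NM_005174) at 2.02 in knockdown and 2.60 in control cells in the authors' deposited tables. The lower ATP5F1C isoform (NM_001001973) was at 0.45 in knockdown and 0.40 in control cells in the authors' deposited tables. PFKFB2 and ATP5F1C were 2 of the 4 members with both isoforms above 0 in each population. CTPS1, which makes CTP, had the higher isoform at 0.53 in knockdown and 0.22 in control cells and the lower at −7.67 in knockdown and −1.80 in control cells in the authors' deposited tables. PPT1, a lysosomal thioesterase, had the higher isoform at 0.34 in knockdown and 0.31 in control cells and the lower at −8.94 in knockdown and −2.66 in control cells in the authors' deposited tables. The lower isoforms of CTPS1 and PPT1 were far lower in knockdown than in control cells.

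By family, counted by symbol, members were 5 of 39 eligible solute carriers (12.8%), 4 of 53 genes of the ubiquitin system (7.55%), 2 of 42 splicing and RNA-binding proteins (4.76%), 4 of 38 genes with kinase symbols (10.5%), 1 of 25 phosphatases, 1 of 46 mitochondrial proteins (2.17%), 1 of 24 chromatin regulators (4.17%), 3 of 9 ZBTB genes, 3 of 20 TMEM genes (15.0%), 1 of 13 other zinc-finger genes (7.69%), and 0 of 7 RAB GTPases and 0 of 18 chaperones. The share over all eligible genes was 6.14%, and with families this small no family is called particular. The symbol match for the ubiquitin system took in USP43, FBXO5, RNF19A and FBXO25 and missed the ubiquitin ligases SMURF1 and MIB2, so these counts cover only part of each family. RNF19A had the higher isoform at 0.82 in knockdown and 0.65 in control cells and the lower at −1.64 in knockdown and −1.22 in control cells in the authors' deposited tables. The remaining TMEM genes were TMEM132A, with the higher isoform at 4.31 in knockdown and 9.15 in control cells and the lower at 0.08 in knockdown and −1.44 in control cells, and TMEM250, with the higher isoform at −0.37 in knockdown and −0.23 in control cells and the lower at −2.08 in knockdown and −2.95 in control cells, in the authors' deposited tables. The zinc-finger gene ZKSCAN5 had the higher isoform at 0.54 in knockdown and 0.05 in control cells and the lower at −1.65 in knockdown and −1.64 in control cells in the authors' deposited tables.

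The size of the gap was compared between knockdown and control cells. The gap of the knockdown minus that of the control had a median of −0.0031 with quartiles of −0.63 and 0.59, and was above 0 for 66 members and below 0 for 67. It was under 0.5 in size for 58 members, between 0.5 and 1.5 for 43, at 1.5 or more for 21 and at −1.5 or less for 11. The rule sets the direction and the least size of both gaps. The same counts were not made over all eligible genes, so these describe the members alone. USP43, a deubiquitinase, had the widest gap in knockdown cells, 15.36 in knockdown and 5.92 in control cells, with the higher isoform at 9.23 in knockdown and 0.30 in control cells and the lower at −6.13 in knockdown and −5.62 in control cells in the authors' deposited tables. CNKSR1, a scaffold of RAS signalling, followed with gaps of 14.53 in knockdown and 4.66 in control cells and the higher isoform at 9.77 in knockdown and 0.72 in control cells and the lower at −4.76 in knockdown and −3.94 in control cells in the authors' deposited tables. In both genes the higher isoform was above 9 in knockdown cells and under 1 in control cells. MIB2, a ubiquitin ligase, had the higher isoform at 8.82 in knockdown and 1.57 in control cells and the lower at 0.40 in knockdown and −1.39 in control cells in the authors' deposited tables, and both of its isoforms had higher values in knockdown cells. TINAGL1 had the higher isoform at 0.41 in knockdown and 0.39 in control cells and the lower at −9.51 in knockdown and −1.69 in control cells in the authors' deposited tables. Between the populations the lower TINAGL1 isoform differed by more than 7 and the higher by under 0.1. Gaps narrower in the knockdown included ACSF3, with 5.26 in knockdown and 11.95 in control cells, CD109, with 1.90 in knockdown and 7.46 in control cells, TMEM132A, with 4.24 in knockdown and 10.59 in control cells, and MKRN2, with 4.36 in knockdown and 9.22 in control cells. Without values per library none of these differences could be set against replicate error.

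Transcript structure was not used to choose the members and was read from GENCODE release 29. It covered the 110 members, and 1746 other eligible genes, whose isoforms each paired with a transcript of their own not marked incomplete. That mark may miss transcripts cut short. The 3′UTR paired with the higher SLC38A2 isoform has 0 bases. In HDAC5, which shares stop codon and last exon, it has 1630 bases in the higher and 82 in the lower isoform. Short 3′UTRs counted below can thus be cut-short annotation. Of the other 23 members, both accessions shared 1 GENCODE transcript in 16, one accession had none in 6, and 1 had an incomplete one. Those sharing 1 included ST13, BCKDHA, ACSF3, TGFBRAP1, CASS4, TUBB2A, SMURF1, PRKAG2, TENT4B and HNRNPA1L2. The pairing of RefSeq with GENCODE transcripts is by similarity, so ends, exons and coding sequence of single pairs can differ from the RefSeq record. The ENO1 pair is one such doubtful case, since its transcripts have the same coding sequence in GENCODE, and it is among those counted as the same below. The coding sequence was the same in 23 of 110 members (20.9%), against 18.6% of the other eligible genes. The stop codon differed in 25 members (22.7%) against 25.3%, the start codon in 18 (16.4%) against 23.5%, the last exon in 18 (16.4%) against 20.9%, and the first exon in 33 of 110 against 35.4%. In 46 members (41.8%) against 34.0% the start and stop codon were shared while internal coding exons differed. Members thus held every kind of isoform difference, in shares that lay within 8 percentage points of the other eligible genes.

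By annotated length, the longer 3′UTR lay with the lower isoform about as often in members as in the other eligible genes. Some of these ends may be cut short, and no test was run. Among the 106 members with a 3′UTR of at least 20 bases in both isoforms, the median length was 952 bases in the higher and 891 in the lower isoform, and in the 1683 other eligible genes 705 and 757. The lower isoform had the longer 3′UTR in 45 of 86 members with unequal lengths (52.3%), against 51.7% of the other eligible genes. By 200 bases or more, the 3′UTR was longer in the higher isoform of 21 members and in the lower isoform of 26. The lower isoform had the shorter coding sequence in 40 of 86 members (46.5%), against 53.3%, the longer 5′UTR in 49.5%, against 48.1%, and the higher GC content in 48.2%, against 46.0%. Where the stop codons differed, the lower isoform had the shorter coding sequence in 9 of 24 members (37.5%), against 53.7%.

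**Figure D4:**
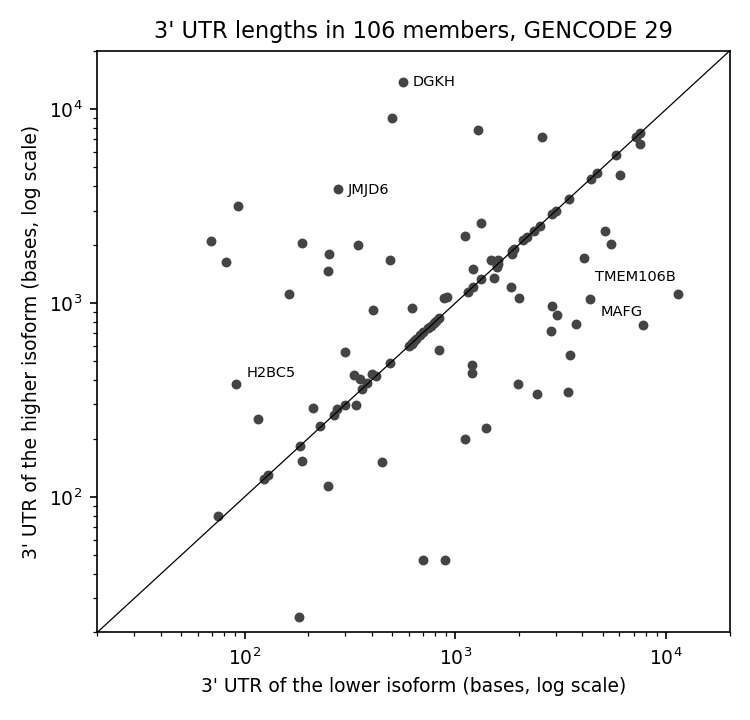
Length of the 3′UTR in bases (GENCODE 29, log axes) in the higher isoform on the vertical and the lower isoform on the horizontal axis for 106 members. The line marks equal lengths; 21 members lie above it and 26 below it by 200 bases or more.

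Among members with a 3′UTR of at least 20 bases in both isoforms, the widest differences in length ran both ways. CDK6 was left out by that minimum, since the transcript paired with its higher isoform has a 3′UTR of 0 bases and that of its lower isoform one of 10219. The higher isoform had the longer 3′UTR in DGKH, a diacylglycerol kinase, with 13745 bases in the higher and 562 in the lower isoform, in LNPEP with 8982 bases in the higher and 503 in the lower isoform, in ZMAT3, a p53-induced RNA-binding protein, with 7794 bases in the higher and 1278 in the lower isoform, in RPP14 with 7199 bases in the higher and 2582 in the lower isoform, and in JMJD6 with 3854 bases in the higher and 276 in the lower isoform. The lower isoform had the longer one in TMEM106B, in MPRIP, a myosin phosphatase-interacting protein, with 768 bases in the higher and 7754 in the lower isoform, in PFKFB2 with 2005 bases in the higher and 5452 in the lower isoform, in MAFG, and in HM13, the signal peptide peptidase, with 348 bases in the higher and 3405 in the lower isoform. DGKH had the higher isoform at 4.47 in knockdown and 1.57 in control cells and the lower at −0.45 in knockdown and −1.67 in control cells in the authors' deposited tables. ZMAT3 had the higher isoform at 1.08 in knockdown and 0.37 in control cells and the lower at −0.58 in knockdown and −1.61 in control cells in the authors' deposited tables, MPRIP the higher isoform at 1.14 in knockdown and 0.94 in control cells and the lower at −0.64 in knockdown and −0.66 in control cells, and HM13 the higher isoform at 0.63 in knockdown and 0.24 in control cells and the lower at −1.20 in knockdown and −1.30 in control cells. MPRIP and HM13 differed by less than 0.4 between the populations in each isoform, and the lower isoform of DGKH by more than 1.

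Sequence elements were counted in the 3′UTR bases that one isoform had and the other lacked, on the transcript strand, overlaps included. AUUUA, the core of AU-rich elements, occurred 2.53 times per kilobase in the parts particular to higher isoforms and 2.82 in those of lower isoforms of the members, and 2.35 and 2.45 in the other eligible genes. AUAUA, which RBMS proteins are known to bind, occurred 2.82 times in the parts of higher isoforms and 1.77 in those of lower isoforms, and 1.92 and 1.95 in the other eligible genes. UGUANAUA, the Pumilio site, occurred 0.459 and 0.262 times in the same order, and 0.226 and 0.253 in the other eligible genes. Of the 29 UGUANAUA matches in the parts of the members' higher isoforms, 17 lay in LNPEP. Of the 178 AUAUA matches in these parts, 50 lay in DGKH and 41 in LNPEP. The poly(A) signal AAUAAA occurred 1.16 and 1.17 times, and 1.25 and 1.19 in the other eligible genes. Of whole 3′UTRs of members, 68.9% of higher and 67.9% of lower isoforms held AUUUA and 54.7% and 58.5% held AUAUA, against 62.7% and 64.1%, and 51.2% and 52.6%, in the other eligible genes. Only 14 members had 100 or more such bases in each isoform, which is too few to weigh. AUUUA was denser in the higher isoform in 3 of these and in the lower in 10, against 108 and 122 of 263 other eligible genes. AUAUA was denser in the higher isoform in 8 and in the lower in 3, against 92 and 116. These are counts of letters, mostly from a few long 3′UTRs, and no match is shown to be a site.

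Non-coding transcripts (NR_) of the same genes were not used by the rule either. They were listed for 11 members, 1 transcript each, and 9 of these stood in both tables, 4 of them between the coding isoforms in each. The NR_ transcript of POT1, a telomere protein, was at −3.42 in knockdown and −2.08 in control cells in the authors' deposited tables, below both coding isoforms, which were at 1.34 and −0.53 in knockdown and 1.22 and −0.66 in control cells. The NR_ transcript of AFMID was at −0.53 in knockdown and 0.03 in control cells in the authors' deposited tables, near its lower coding isoform and far from the higher.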

How the data were processed

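RNA-seq was made from 8 libraries of SW480 cells. Per the labels' protocols, total RNA was depleted of ribosomal RNA and made into ScriptSeq libraries. The submitters' processing notes list STAR 2.5, Cufflinks, Cuffdiff and hg38, giving neither role nor order. The authors deposited 1 log fold change per RefSeq transcript and shRNA, taken here as log2 because Cuffdiff writes log2. Base, direction and normalization are not stated. The mRNAs of MYC, FOS, JUN and IER2 are short-lived. They were at −1.38, −1.24, −0.81 and −0.32 in knockdown and −1.44, −1.61, −1.01 and −0.58 in control cells in the authors' deposited tables. All were below 0, and the values were read as 9 h over 0 h. Whether the block was complete, or the scale compressed, was not tested. A shift of a whole table cancels in the gap between isoforms.

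The RefSeq gene table (GRCh38.p14) gave a symbol to 19544 of 19701 NM_ accessions, and 157 were left out. Structures and sequences came from GENCODE release 29, on GRCh38, through its RefSeq table. The member finder was run on simulated data with planted gaps far above the simulated noise. That run checks the code and says nothing of the members. Python 3.11.15, pandas 2.3.3 and NumPy 2.4.6 were used.

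The members and lists were chosen with earlier results of these data known. Named genes were the 12 with the largest smaller gap, 5 on each side of the threshold, 5 with the largest difference in 3′UTR length in each direction among those with at least 20 bases in both isoforms, members with a value of 8 or more, family members, up to 10 with a lower isoform at −1 or below and the other at 0 or above, and 5 with opposite gaps. Other members were named for their role, and some were picked for sequences, after their values were seen. The bounds used to describe value patterns, the minimum 3′UTR length of 20 bases and the stem-loop search were also set after seeing the data. Some 24 structural counts and 4 motifs were examined. None was tested, since no value per library was used.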

Additional observations from a re-analysis of the deposited data

Results flagged for a closer look

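In 60 eligible genes the isoforms changed places between the populations, each gap being 1.5 or more in size. The 5 with the largest smaller gap are given because the direction in RBMS1 knockdown cells was opposite to that in control cells; the difference was not tested, and no value per library stands behind it. The change in gap, knockdown minus control, was 17.42 for LYPD5, 19.05 for PGPEP1, −16.43 for PHETA1, 17.17 for MRPL58 and 21.63 for TENT4A, a non-canonical poly(A) polymerase. In the authors' deposited tables the TENT4A isoform NM_001171805 was at 9.08 in knockdown and −7.64 in control cells, and NM_006999 at −5.44 in knockdown and −0.53 in control cells. LYPD5 had NM_182573 at 0.45 in knockdown and −7.34 in control cells and NM_001031749 at −8.39 in knockdown and 1.24 in control cells in the authors' deposited tables. Each of the 5 genes had a value above 7 in size in at least 1 table.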

How the results depend on the processing

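The number of members was 292 with a gap threshold of 1.0 and 78 with one of 2.0, against 133 at 1.5. It was 133 with exactly 2 accessions over both tables together, 130 with symbols from GENCODE, 142 with ZNF genes kept, 101 without genes that had a value of 5 or more in size, and 122 without genes that had an NR_ transcript. The share of genes past the threshold in both tables whose same isoform was lower was 68.9%, and ran from 67.2% to 74.3% over the other thresholds and without large values. The share of members whose lower isoform had the longer 3′UTR ran from 47.9% to 58.5% over the alternatives run, and crossed 50% at a threshold of 2.0. The share whose lower isoform had the shorter coding sequence ran from 41.5% to 50.3%. No replicate could be left out, since the deposited values combine the libraries. No paired analysis was possible because the tables hold no column per library. Depth is unknown, and with it the error of each value. These alternatives were chosen after seeing the data: without a minimum 3′UTR length the share was 52.2%, and the gap rule on genes with 3 or more accessions gave 113 genes.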

Other observations

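Genes with 3 or more coding accessions in both tables were outside the rule. Of 1228 such genes, ZNF genes left out, 316 had the same lowest and the same highest isoform in both tables, and 113 (9.20%) had a gap of 1.5 or more between them in each. ADAR, an RNA-editing enzyme, had its highest isoform (NM_001193495) at 1.66 in knockdown and 1.44 in control cells and its lowest (NM_001111) at −7.61 in knockdown and −7.90 in control cells in the authors' deposited tables. HPGD, which inactivates prostaglandins, had its highest isoform (NM_000860) at −0.0039 in knockdown and 0.26 in control cells and its lowest (NM_001145816) at −8.55 in knockdown and −8.28 in control cells in the authors' deposited tables. SF1, a splicing factor, had its highest isoform (NM_201998) at 0.86 in knockdown and 0.31 in control cells and its lowest (NM_201997) at −6.23 in knockdown and −7.67 in control cells in the authors' deposited tables. Of the 68 ZNF genes with the same 2 coding accessions in both tables, which the rule left out, 9 (13.2%) had a gap of 1.5 or more the same way in both, against 6.14% of the eligible genes.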
